A study of Triticum aestivum with 24 samples.

Results

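The 6 genes described here encode Rubisco activase in bread wheat (Triticum aestivum), a hexaploid whose 3 subgenomes, A, B and D, each carry a copy (a homoeolog) of most genes. They are 6 of the 105200 genes of the deposited table. All 6 were found by identifier: the Rca1-beta homoeologs TraesCS4A02G177600 (Rca1-A), TraesCS4B02G140200 (Rca1-B) and TraesCS4D02G134900 (Rca1-D), and the Rca2 homoeologs TraesCS4A02G177500 (Rca2-A), TraesCS4B02G140300 (Rca2-B) and TraesCS4D02G135000 (Rca2-D). The chromosome is part of the identifier: all lie on group 4 chromosomes, and on each of 4A, 4B and 4D the Rca1 and Rca2 identifiers are adjacent. The Rca1 identifier precedes that of Rca2 on 4B and 4D and follows it on 4A.

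Rubisco, the enzyme that fixes CO2 in the Calvin-Benson cycle, loses activity when sugar phosphates bind tightly to its active site. Rubisco activase is an ATP-driven chloroplast protein that pulls these inhibitors off, and its sensitivity to heat is a known limit on leaf photosynthesis at high temperature. In wheat, Rca1 encodes the short beta form, described as the heat-induced and more heat-stable one, and Rca2 gives a long alpha and a short beta form by alternative splicing. The table holds 1 value per gene, so the Rca2 forms were not told apart.

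Winter wheat of cultivar Alana was grown in 8 regimes that crossed 3 treatments: drought at a soil water content of 25 ± 5%, CO2 raised to 700 ppm, and a temperature raised to as much as 31 °C. The groups were CO2+temperature+drought, CO2+temperature, temperature+drought, temperature, CO2+drought, CO2, drought and untreated control, with 3 biological replicates each, 24 libraries in all. Leaf RNA was taken from the main tiller at growth stage 61, the start of flowering, from leaves 3 and 4. The labels do not say whether a replicate was 1 plant or several, how long each treatment lasted, or the temperature and CO2 of the control.

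Levels are FPKM, which scales fragments by a transcript's length and by how many fragments a library mapped, so levels of different genes can be set side by side. Between 61757 and 64248 genes lay above 0 FPKM in each library. The columns were of 2 kinds. The 6 libraries of temperature+drought and CO2+drought had scale factors (the median ratio of a library's genes to their geometric mean over libraries) of 0.872 to 0.892, against 1.05 to 1.06 in the other 18, so that the typical gene in these 6 lay lower. The values of these 6 columns were also written to a median of 9 decimals, against 14 in the other 18. Group and column kind cannot be told apart here. Comparisons with either group are therefore given on the deposited scale and on a second one, called rescaled, in which a library's values were divided by its scale factor. As deposited, the median gene differed by -0.19 on the log2 scale between CO2+drought and CO2, and by -0.18 between temperature+drought and drought. In bulk leaf RNA, fewer cells of a type and less RNA per cell cannot be told apart. The sources used here do not say how fragments were divided among near-identical copies, so the level of a single homoeolog is uncertain.

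The Rca1 homoeologs were selected on their measured values: earlier results of these data gave them as high under temperature, CO2+temperature and CO2+temperature+drought relative to control. Their levels in these groups are a description, with no test. The highest levels stood in the libraries that had both heat and CO2. Rca1-D, the most abundant of the 3 in every library, was at 2205, 2527 and 2374 FPKM under CO2+temperature and at 2322, 1922 and 993 FPKM under CO2+temperature+drought. Heat without CO2 gave lower values: 161, 748 and 468 FPKM under temperature+drought, and 669, 473 and 129 FPKM under temperature. The groups with heat and CO2 thus lay above every library that had heat without CO2. Without heat, Rca1-D stood at 2.06, 2.3 and 2.33 FPKM under CO2+drought, 25.9, 26.6 and 26.3 under CO2, 4.89, 6.06 and 6.56 under drought, and 7.38, 8.71 and 9.27 in control. No unheated library of any group reached the lowest heated one.

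**Figure D1:**
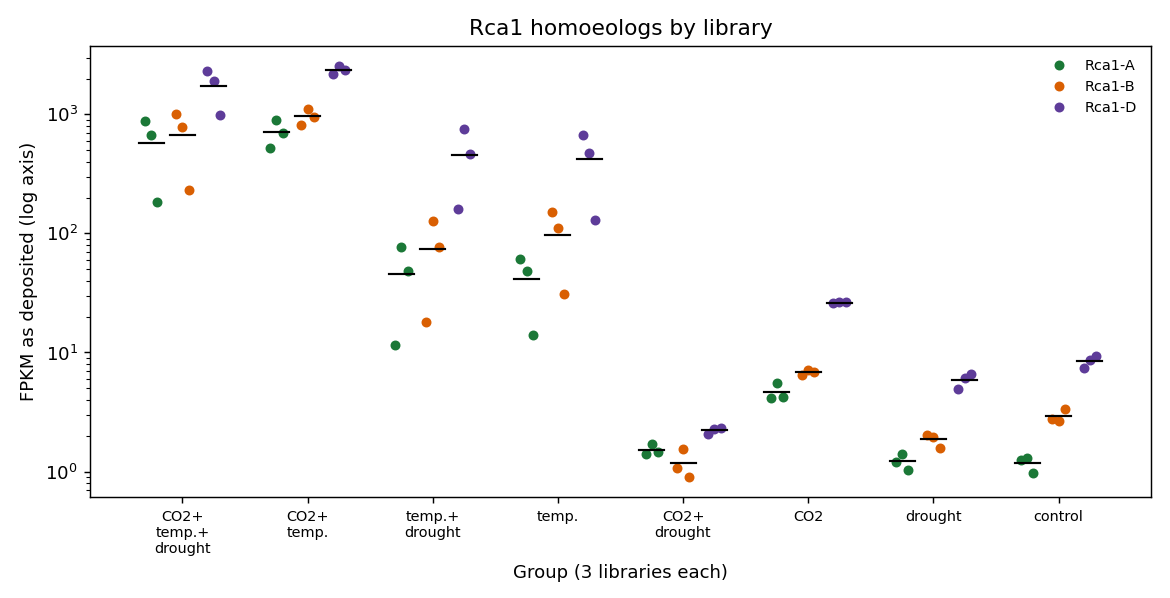
FPKM of the 3 Rca1 homoeologs (log axis) in each of the 24 libraries by group, with points for libraries and bars for the mean of 3. All 12 heated libraries lie above all unheated ones for each homoeolog, and the groups with CO2 and heat lie highest.

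Rca1-A was at 888, 668 and 184 FPKM under CO2+temperature+drought, at 526, 890 and 698 FPKM under CO2+temperature, at 11.7, 76.5 and 48.3 FPKM under temperature+drought, and at 61.5, 48.3 and 14.2 FPKM under temperature. It stayed between 0.977 and 1.29 FPKM in the 3 control libraries. Rca1-B averaged 673 ± 396 FPKM under CO2+temperature+drought, 960 ± 151 under CO2+temperature, 73.9 ± 54.5 under temperature+drought and 97.4 ± 60.9 under temperature, against 2.94 ± 0.377 FPKM in control (SD, n = 3 each). As for Rca1-D, every library of both homoeologs with heat and CO2 lay above every library with heat and no added CO2. The libraries of temperature+drought and temperature overlapped for all 3.

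Summed over the 3 homoeologs, Rca1 ran from CO2+temperature (4034 ± 494 FPKM) and CO2+temperature+drought (2998 ± 1438), whose libraries overlapped, to temperature+drought (579 ± 380) and temperature (562 ± 358), which also overlapped. CO2 (37.8 ± 1.41), control (12.6 ± 1.10), drought (8.91 ± 0.689) and CO2+drought (4.92 ± 0.551; SD, n = 3 each) followed with no overlap between neighbours. The order was the same rescaled. The mean sum under temperature was 44.7 times that of control, and under CO2+temperature 107 times that of CO2. With drought on both sides, the ratio was 64.9 for temperature+drought over drought (77.8 rescaled) and 609 for CO2+temperature+drought over CO2+drought (513 rescaled). CO2+drought, the denominator of the last ratio, was the lowest of the 8 groups.

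The difference in means between heated and unheated droughted plants at ambient CO2 was tested. It rests on 6 libraries that had no part in choosing the genes. The 45359 genes that reached 1 FPKM in 3 or more libraries, all 6 activase genes among them, were compared on log2(FPKM + 1) with limma in a fit to all 24 libraries, and were called at a Benjamini-Hochberg adjusted p under 0.05. All 3 Rca1 homoeologs rose under temperature+drought relative to drought, where 13.1% of all genes tested were called higher (22.6% rescaled). Rca1-D averaged 459 ± 293 FPKM under temperature+drought and 5.83 ± 0.856 FPKM under drought (SD, n = 3 each), a log2 difference of 5.82 (SE 0.48; limma, adjusted p = 9.9e-09). Rca1-B differed by 4.33 (SE 0.58, adjusted p = 5.3e-06 with limma) and Rca1-A by 4.04 (SE 0.57, adjusted p = 9.9e-06 with limma). For each homoeolog the 3 temperature+drought libraries lay above the 3 drought libraries on both scales. The rescaled differences were 4.26 to 6.07, and no left-out library ended a call. The SE and adjusted p given here pool the spread of all 24 libraries, including the groups used to choose the genes. In a fit to these 6 libraries alone, all 3 homoeologs were still called, each with a higher adjusted p.

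Drought in unheated plants with added CO2 was tested too, since the choice of genes did not use that comparison, and 2 of the 3 Rca1 homoeologs were lower. Rca1-D fell under CO2+drought to 2.23 ± 0.148 FPKM, against 26.3 ± 0.376 FPKM under CO2 (SD, n = 3 each; log2 difference -3.08, SE 0.48; limma, adjusted p = 8.2e-05; rescaled -2.89, adjusted p = 0.00029). Rca1-B fell to 1.18 ± 0.34 FPKM under CO2+drought, against 6.85 ± 0.325 FPKM under CO2 (log2 difference -1.86; limma, adjusted p = 0.016; rescaled -1.70, adjusted p = 0.041), a call lost without CO2+drought replicate 3 (adjusted p = 0.0505). Rca1-A stood at 1.52 ± 0.159 FPKM under CO2+drought and 4.63 ± 0.751 FPKM under CO2, with no overlap (log2 difference -1.16, SE 0.57; limma, adjusted p = 0.11). Rca1-A was called with a pseudocount of 0.1 (limma, adjusted p = 0.045) and in a fit to these 6 libraries alone (limma, adjusted p = 0.00081). The 2 calls of 3 stood beside a background in which 32.2% of genes were called lower as deposited and 10.5% rescaled. At such levels, the added 1 FPKM shrinks the log2 difference. The SE of the fit to all 24 libraries also pools the spread of every group, the heated ones included. For Rca1-A it was 0.57 there and 0.11 in the fit to these 6 libraries.

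CO2 added to drought gave no call of Rca1. The 3 Rca1-D libraries of CO2+drought (2.06 to 2.33 FPKM) lay below the 3 of drought (4.89 to 6.56 FPKM), a log2 difference of -1.08 (SE 0.48; limma, adjusted p = 0.068). Rca1-B differed by -0.40 and Rca1-A by 0.19. With limma, 1 of the 3 had an unadjusted p under 0.05, and 49.1% of genes tested were called in either direction. Rescaled, the Rca1-D difference was -0.90 (limma, adjusted p = 0.14), 0 of 3 were called with 0 at an unadjusted p under 0.05, the Rca1-B libraries overlapped, and 40.6% of genes were called. Rca1-D was called with a pseudocount of 0.1 (limma, adjusted p = 0.027), and Rca1-D and Rca1-B in a fit to these 6 libraries alone (limma, adjusted p = 0.00051 and 0.041).

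Rca1 varied widely between replicates in 3 of the 4 heated groups, and CO2+temperature was the exception. Its highest library held 5.06 times the sum of its lowest under temperature, 4.98 times under temperature+drought, 2.99 times under CO2+temperature+drought and 1.28 times under CO2+temperature. The unheated groups spanned 1.08 (CO2) to 1.23 times (CO2+drought). Within each of the 4 heated groups the 3 homoeologs ranked the 3 libraries in the same order, and they did so under CO2 as well. The library-to-library differences of these groups were thus shared by the A, B and D copies, as far as their fragments were told apart. In the heated groups Rca1 was lowest in the following libraries. The lowest libraries were replicate 3 under CO2+temperature+drought, replicate 1 under CO2+temperature, replicate 1 under temperature+drought and replicate 3 under temperature. Each of these was also the library of its group with the lowest mean correlation to the other replicates over all genes tested: 0.946, 0.988, 0.959 and 0.974. The highest such value in those groups was 0.975, 0.991, 0.980 and 0.985. The part of these library differences in the Rca1 values was not tested. Without temperature+drought replicate 1, the log2 differences of Rca1-A, Rca1-B and Rca1-D from drought were 4.81, 5.13 and 6.45.

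**Figure D2:**
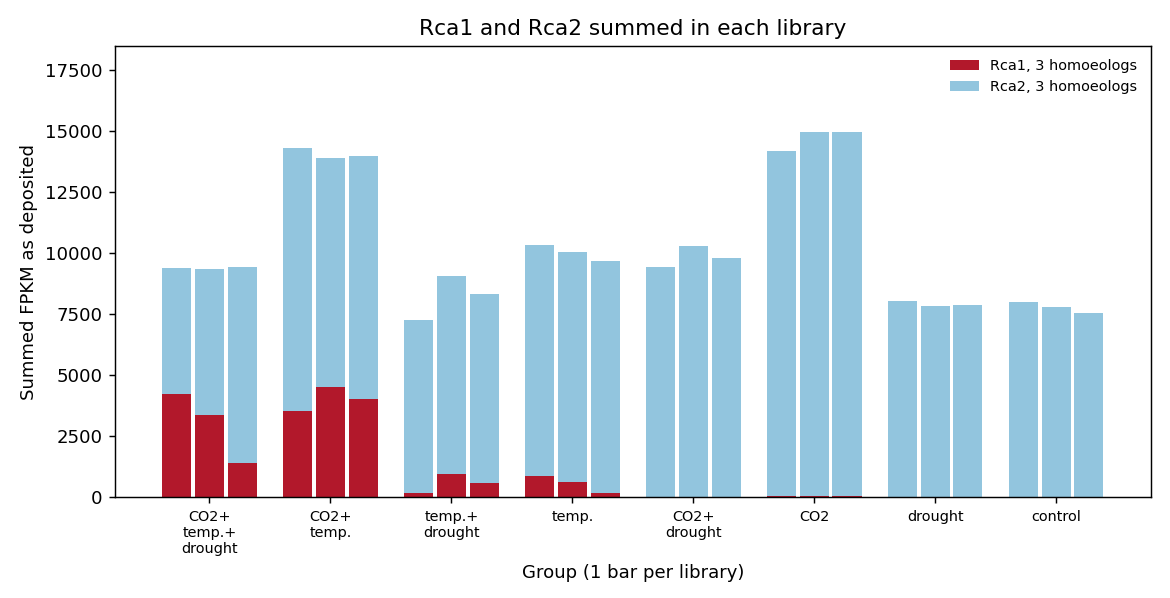
FPKM of Rca1 (red, 3 homoeologs summed) and Rca2 (blue, 3 homoeologs summed) stacked in each library, with 1 bar per library in each group. Under CO2+temperature+drought the red part differs about 2.99-fold among libraries while the bar heights stay between 9347 and 9452 FPKM.

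Rca2 was among the most abundant transcripts of these leaves in every group. Each Rca2 homoeolog ranked among the first 5 of 105200 genes in every library of control, drought, CO2, CO2+drought, temperature and CO2+temperature, and Rca2-D ranked the highest of all genes in all 3 CO2 and all 3 CO2+drought libraries. Rca1-D ranked 3, 6 and 26 under CO2+temperature+drought and 7 or 8 under CO2+temperature, but between 13202 and 15997 in control. Rca1 accordingly made up 31.9 ± 15.3% of all activase FPKM under CO2+temperature+drought, 28.7 ± 3.89% under CO2+temperature, 6.75 ± 3.95% under temperature+drought and 5.53 ± 3.42% under temperature. Its share was 0.0499 ± 0.00344% under CO2+drought, 0.257 ± 0.00627% under CO2, 0.113 ± 0.0105% under drought and 0.162 ± 0.0189% in control (SD, n = 3 each). A share inside a library does not depend on how its column was scaled.

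The Rca2 homoeologs were included as the other activase family and were tested in the 12 comparisons that add 1 treatment to a fixed background. Elevated CO2 alone gave the clearest rise. Rca2-A was at 4707, 4970 and 5021 FPKM under CO2, against 2631, 2570 and 2488 FPKM in control. Rca2-B was at 4603, 4858 and 4836 FPKM under CO2, against 2652, 2575 and 2491 FPKM in control. Rca2-D was at 4848, 5125 and 5086 FPKM under CO2, against 2703, 2657 and 2549 FPKM in control. For each homoeolog every CO2 library lay above every control library, and the means were 1.85 to 1.91 times higher. All 3 were called higher, where 19.9% of genes tested were, with log2 differences of 0.93 (SE 0.08, limma, adjusted p = 7.3e-08), 0.89 (SE 0.11, adjusted p = 6.6e-06) and 0.93 (SE 0.16, adjusted p = 0.00016) for A, B and D. These 3 calls, and the 3 for the interaction of heat with CO2 below, held in every alternative fit. With no filter on low genes the SE of Rca2-A was 0.21 in place of 0.08, and most other Rca2 calls given below were lost: those that remained were Rca2-D for CO2+temperature against CO2, for CO2+temperature+drought against CO2+drought and for CO2+temperature+drought against CO2+temperature.

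**Figure D3:**
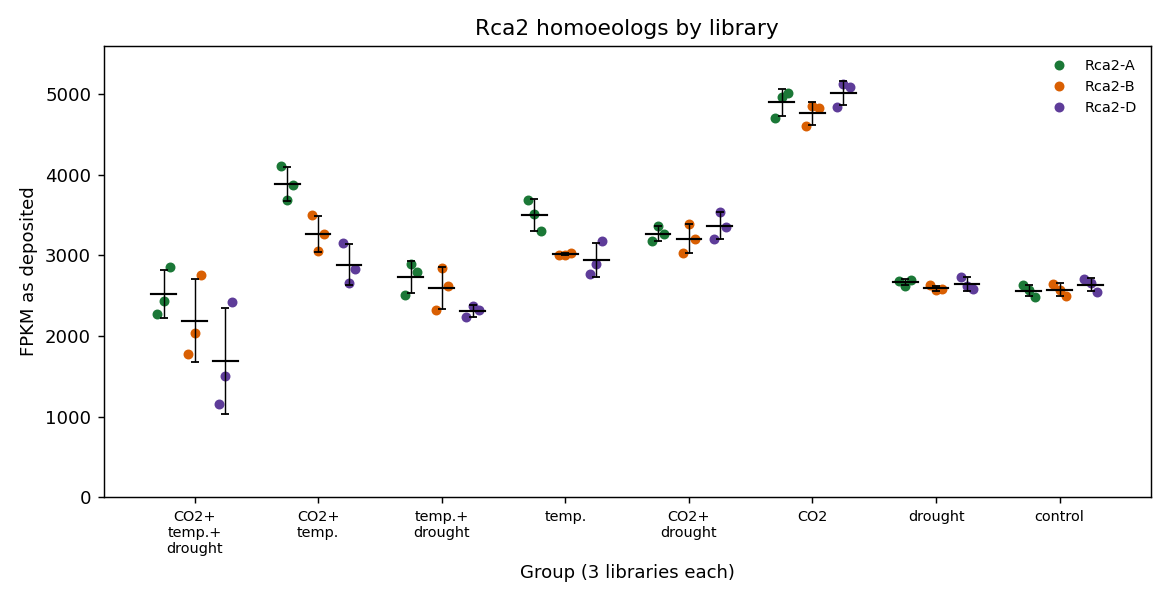
FPKM of the 3 Rca2 homoeologs (linear axis from 0) in each library by group, with points for libraries, long bars for the mean and error bars for the SD (n = 3). The homoeologs lie together in the 4 unheated groups and separate, with D lowest and A highest by mean, in the 4 heated ones.

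The rise with CO2 was smaller on every other background. Added to drought, CO2 raised Rca2-A (3271 ± 91.9 FPKM under CO2+drought and 2667 ± 36.8 under drought; log2 difference 0.29; limma, adjusted p = 0.007) and Rca2-B (3210 ± 185 FPKM under CO2+drought and 2593 ± 32.8 under drought; log2 difference 0.31; limma, adjusted p = 0.033). Rca2-D differed by 0.35 (limma, adjusted p = 0.079, but 0.011 in a fit to these 6 libraries alone), and no CO2+drought library overlapped a drought library for any of the 3. How many of all genes lacked overlap in the same way was not counted. Rescaled, all 3 were called, with log2 differences of 0.53, 0.55 and 0.59. The percentage of genes called higher was 12.7 as deposited and 20.8 rescaled. The Rca2-B call as deposited was lost in 5 of the 6 fits that left out 1 library (any drought library, or CO2+drought replicate 2 or 3).

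Added to heat, CO2 gave no call among the 3 Rca2 homoeologs. Rca2-A averaged 3888 ± 214 FPKM under CO2+temperature and 3504 ± 195 under temperature, Rca2-B 3272 ± 224 under CO2+temperature and 3016 ± 15.9 under temperature, and Rca2-D 2884 ± 254 under CO2+temperature and 2947 ± 214 under temperature (SD, n = 3 each). Their log2 differences were 0.15, 0.11 and -0.03 (limma, adjusted p from 0.28 to 0.94), with 0 of 3 at an unadjusted p under 0.05, where 13.7% of genes were called in either direction. The Rca2-B libraries of CO2+temperature lay above those of temperature, and those of Rca2-A and Rca2-D overlapped. Added to heat and drought together, CO2 lowered Rca2-D, which was at 1153, 1505 and 2418 FPKM under CO2+temperature+drought, against 2236, 2375 and 2325 FPKM under temperature+drought (log2 difference -0.52; limma, adjusted p = 0.013). There 11.1% of genes were called lower as deposited and 19.6% rescaled. The Rca2-D libraries overlapped as deposited, and the call was lost without CO2+temperature+drought replicate 1 (limma, adjusted p = 0.10) or in a fit to these 6 libraries (limma, adjusted p = 0.20). Rca2-A and Rca2-B differed by -0.12 and -0.27 as deposited, and were both called lower rescaled, at -0.38 and -0.53 beside -0.78 for Rca2-D, and also as deposited without CO2+temperature+drought replicate 3, at -0.21 and -0.45. Without temperature+drought replicate 1, Rca2-B was called at -0.34.

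The effect of heat on Rca2 differed between plants with and without added CO2. In plants at ambient CO2, Rca2-A rose under temperature to 3692, 3520 and 3302 FPKM, above the 3 control libraries given before (log2 difference 0.45, SE 0.08; limma, adjusted p = 0.00083). It was 1 of 3 called, where 9.04% of genes were called higher. Rca2-B at 3016 ± 15.9 FPKM and Rca2-D at 2947 ± 214 FPKM under temperature, against 2573 ± 80.2 and 2637 ± 79.2 FPKM in control (SD, n = 3 each), differed by 0.23 and 0.16 (limma, adjusted p = 0.19 and 0.57). The Rca2-A call was lost in a fit to those 6 libraries alone (limma, adjusted p = 0.081). Under temperature+drought against drought, 0 of 3 were called as deposited with limma, with 0 at an unadjusted p under 0.05, where 50.1% of genes were called in either direction. Rescaled, 1 of 3 was called (Rca2-A, log2 difference 0.29; limma, adjusted p = 0.0096), where 22.6% of genes were called higher.

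In plants with added CO2, heat lowered all 3 Rca2 homoeologs. Under CO2+temperature, relative to CO2, Rca2-A differed by -0.33 (SE 0.08; limma, adjusted p = 0.007), Rca2-B by -0.54 (SE 0.11; adjusted p = 0.002) and Rca2-D by -0.80 (SE 0.16; adjusted p = 0.0013), where 13.6% of genes were called lower. Rca2-D was at 3161, 2660 and 2833 FPKM under CO2+temperature, all below the lowest CO2 library (4848 FPKM). With drought on both sides, all 3 were again called lower, where 14.2% of genes were (22.7% rescaled). Their log2 differences between CO2+temperature+drought and CO2+drought were -0.38, -0.57 and -1.06 for A, B and D as deposited (limma, adjusted p from 2.5e-05 to 0.00098), and -0.63, -0.82 and -1.31 rescaled. The fall was thus deepest for the D copy in both comparisons, and the difference between copies was not tested. Rca1-D plus Rca2-D averaged 5046 FPKM under CO2 and 5253 under CO2+temperature. It averaged 3370 FPKM under CO2+drought and 3438 under CO2+temperature+drought (3784 and 3251 rescaled). The sums of the A copies and of the B copies were lower with heat in both comparisons. Without drought they went from 4904 to 4593 and from 4772 to 4232 FPKM. The part of the division of fragments between Rca1 and Rca2 in these falls was not tested.

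**Figure D4:**
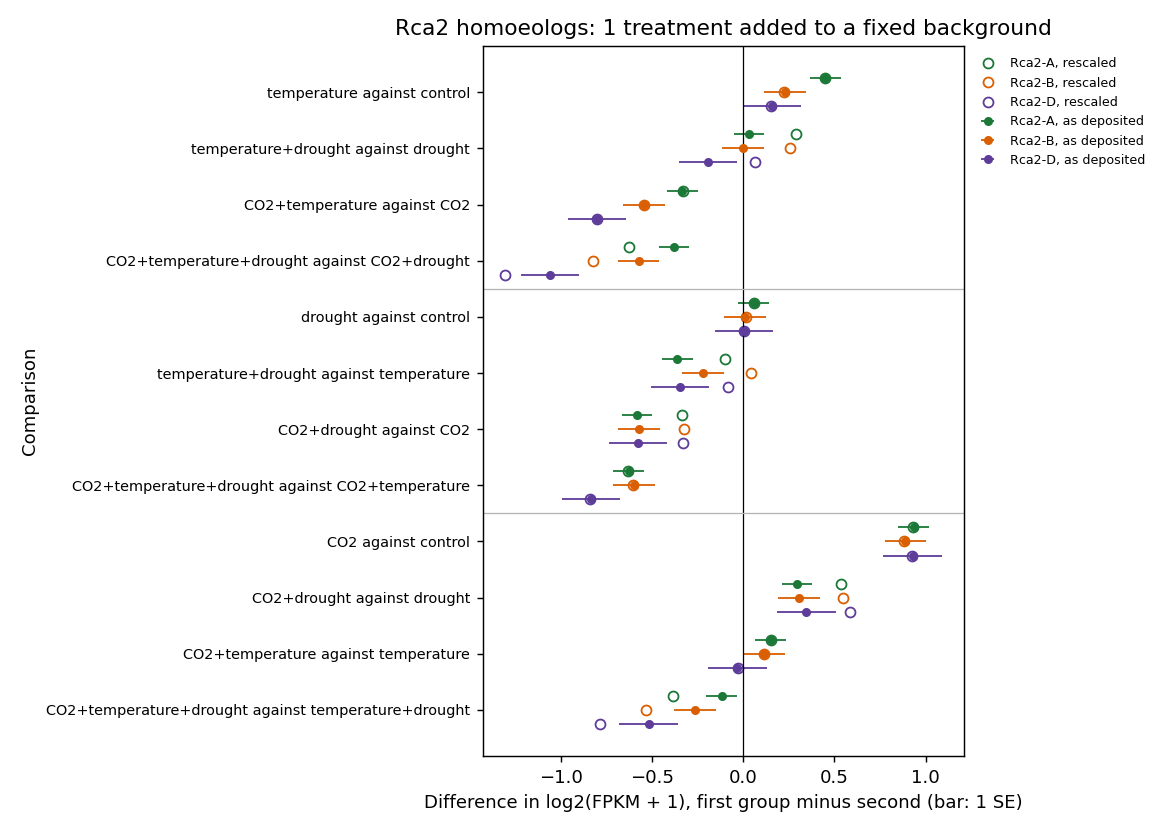
Difference in log2(FPKM + 1) of the 3 Rca2 homoeologs in 12 comparisons, first group minus second, as deposited (filled, bar 1 SE) and rescaled (open). Grey lines part the comparisons that add heat (top), drought (middle) and CO2 (bottom); all 3 homoeologs lie near 0.9 for CO2 against control and near 0 for drought against control.

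Drought alone gave no call of Rca2. The log2 differences between drought and control were 0.06 (SE 0.08), 0.01 (SE 0.11) and 0.01 (SE 0.16) for A, B and D, with overlapping libraries. None of 3 was called with limma and 0 had an unadjusted p under 0.05, where 1.91% of genes were called in either direction. Under heat, drought gave 1 call (Rca2-A, -0.36; limma, adjusted p = 0.0017) as deposited, where 36.4% of genes were called lower, and was lost in a fit to those 6 libraries (limma, adjusted p = 0.095). Rescaled, 0 of 3 were called with limma, with 0 at an unadjusted p under 0.05 and log2 differences of -0.10, 0.04 and -0.09, where 36.7% of genes were called in either direction.

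In plants with added CO2, drought lowered Rca2. Under CO2+drought the 3 homoeologs averaged 3210 to 3368 FPKM, against 4766 to 5019 FPKM under CO2, and no libraries overlapped on either scale. The share of all genes that lacked overlap in this comparison was not counted. Log2 differences were -0.58, -0.57 and -0.58 (limma, adjusted p from 4.1e-05 to 0.0081) as deposited and -0.34, -0.33 and -0.33 rescaled, where Rca2-A alone was called (limma, adjusted p = 0.0082, 0.052 and 0.15). The percentage of genes called lower there was 32.2 as deposited and 10.5 rescaled. Between CO2+temperature+drought and CO2+temperature, which have columns of the same kind, all 3 were called lower, where 12.2% of genes were. Rca2-A was at 2279, 2431 and 2861 FPKM under CO2+temperature+drought, against 4112, 3684 and 3869 FPKM under CO2+temperature (log2 difference -0.63, SE 0.08; limma, adjusted p = 2.1e-05). The log2 differences of Rca2-B and Rca2-D were -0.60 and -0.83 (limma, adjusted p = 0.0007 and 0.00073), both lost in a fit to these 6 libraries alone (limma, adjusted p = 0.074 and 0.087). Without CO2+temperature+drought replicate 3, the library with the least Rca1 and the most Rca2 of its group, the 3 differences were -0.72, -0.78 and -1.13.

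Interactions, the difference between the effects of 1 treatment with and without another, averaged over the remaining treatment, were called for all 3 Rca2 homoeologs with heat and CO2. They were -0.60, -0.67 and -0.91 for A, B and D (limma, adjusted p = 1.1e-05, 8.2e-05 and 0.00011). A negative interaction was called for 15.3% of genes. Rescaled, the values were -0.85, -0.92 and -1.16 (23.9% of genes). The part of the division of fragments between Rca1 and Rca2 in these interactions was not tested. Drought and CO2 also gave 3 of 3, at -0.45, -0.48 and -0.53 (limma, adjusted p = 0.0012, 0.0080 and 0.030; 9.11% of genes as deposited and 9.65% rescaled). The Rca2-D interaction lost its call in 4 of the 24 fits that left out 1 library (adjusted p up to 0.055 with limma). Heat and drought gave 0 of 3 (-0.23, -0.13 and -0.31; limma, adjusted p = 0.056, 0.46 and 0.19), with 1 at an unadjusted p under 0.05, where 20.2% of genes were called in either direction. Without CO2+temperature+drought replicate 3, Rca2-A and Rca2-D were called (-0.28 and -0.45), and without temperature replicate 3 or temperature+drought replicate 2 Rca2-A was (-0.25 in each).

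Rca2 summed over its homoeologs was highest under CO2 (14684 ± 456 FPKM), followed by CO2+temperature (10044 ± 691), CO2+drought (9848 ± 444) and temperature (9468 ± 53.7), of which neighbours overlapped. Drought (7907 ± 130), control (7772 ± 230), temperature+drought (7641 ± 525) and CO2+temperature+drought (6407 ± 1467; SD, n = 3 each) also overlapped from neighbour to neighbour. Rescaled, CO2+drought moved to the second place (11059 ± 466 FPKM) and temperature+drought to the fifth (8694 ± 644 FPKM). CO2+temperature+drought stayed the lowest by mean and overlapped control on both scales.

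Activase as a whole, Rca1 and Rca2 summed, was steadier than either family in the groups with heat and CO2. Under CO2+temperature+drought the totals were 9417, 9347 and 9452 FPKM, although Rca1 was at 4214, 3371 and 1411 FPKM and Rca2 at 5204, 5976 and 8041 FPKM in the same libraries. Under CO2+temperature the totals were 14311, 13923 and 14001 FPKM, and the library lowest in Rca1 was again the highest in Rca2. Each adjacent pair also varied less than its members: under CO2+temperature+drought, Rca1 plus Rca2 came to 3167, 3099 and 3045 FPKM on 4A, 2776, 2820 and 2996 on 4B and 3475, 3428 and 3410 on 4D. In the other heated groups the total was not steadier than Rca2. Under temperature the 4D pair varied less than Rca2-D (highest over lowest 1.04 against 1.15). The 4A and 4B pairs there did not vary less than Rca2-A and Rca2-B, and under temperature+drought no pair varied less than its Rca2 member. Under temperature the totals were 10350, 10045 and 9695 FPKM, and the highest was 1.07 times the lowest, against 1.01 times for Rca2 alone. Under temperature+drought replicate 1 was the lowest in both families (191 and 7073 FPKM). The part of the authors' division of fragments between the copies in this was not tested. The mean total was 9405 ± 53.4 FPKM under CO2+temperature+drought, 14078 ± 205 under CO2+temperature and 14722 ± 457 under CO2, against 7785 ± 229 FPKM in control (SD, n = 3 each).

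The 3 subgenomes contributed unequally to Rca1 in all leaves and to Rca2 chiefly with heat; shares were not tested. Rca2-D held 25.8 ± 4.00% of Rca2 FPKM under CO2+temperature+drought, 28.7 ± 0.569% under CO2+temperature, 30.3 ± 1.19% under temperature+drought and 31.1 ± 2.14% under temperature (SD, n = 3 each), against 33.5% to 34.2% by group mean without heat. The Rca2-A share was 35.7% to 40.0% by mean in the heated groups, against 33.0% to 33.7% in the unheated ones. Without heat the family was balanced: each copy held between 32.1% and 34.4% of Rca2 in all 12 unheated libraries, with 33.0 ± 0.0622%, 33.1 ± 0.0998% and 33.9 ± 0.117% for A, B and D in control. The highest Rca2-D share with heat (33.4%, under temperature) lay within the range of the drought libraries.

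Rca1 was led by the D copy, which held 60.8 ± 8.31% of Rca1 FPKM under CO2+temperature+drought and 59.0 ± 3.23% under CO2+temperature, but 80.7 ± 3.32% under temperature+drought and 75.0 ± 0.918% under temperature, beside 67.2 ± 2.25% in control. Rca1-A made the counterpart change, with 18.0 ± 4.31% under CO2+temperature+drought, 17.3 ± 2.40% under CO2+temperature, 7.43 ± 1.15% under temperature+drought and 7.59 ± 0.577% under temperature (SD, n = 3 each). The A copy thus held more of Rca1 in every library with heat and CO2 than in any library of temperature or temperature+drought. The most even distribution was that of CO2+drought, at 30.9 ± 0.346% for A, 23.7 ± 4.43% for B and 45.5 ± 4.08% for D, where the sum was under 6 FPKM.

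**Figure D5:**
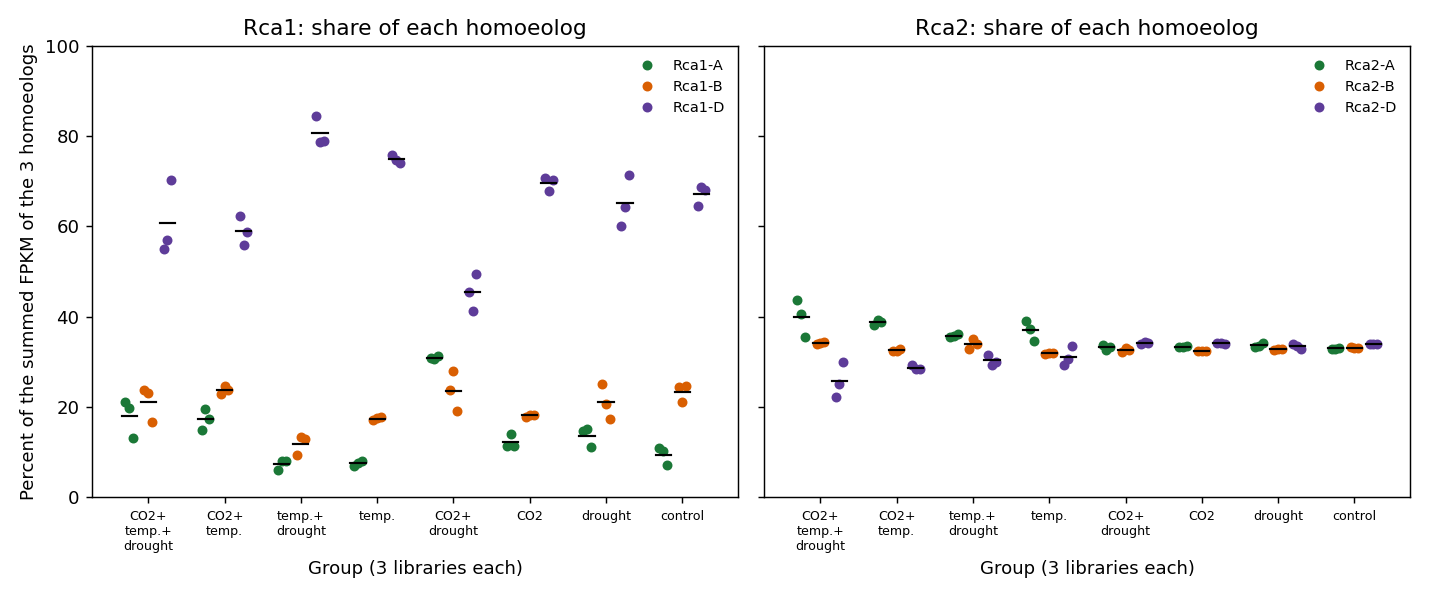
Percent of the summed FPKM of Rca1 (left) and Rca2 (right) held by the A, B and D homoeologs in each library by group, with points for libraries and bars for the mean of 3. The Rca2 copies spread with heat and lie near 33% each without it, and Rca1-D leads in every library.

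Genes next to the activase pairs differed far less than Rca1 where heat was added. Rca1 was chosen for its high levels with heat and the neighbours by position only, so this contrast is a description. Of the 30 genes whose identifiers lie within 5 places of a pair on 4A, 4B or 4D, 12 passed the filter on low values. For temperature against control, 1 of the 12 was called higher and 1 lower, with log2 differences from -1.37 to 0.57 and a median of 0.09, beside a median of 0.00019 over all genes tested and 16.6% of genes called. For temperature+drought against drought, 3 were called higher and 2 lower, none differed by more than 0.98 in size, and 50.1% of all genes were called. For CO2 against control, 6 were higher and 1 lower (log2 differences from -1.15 to 0.90, median 0.37, against 0.0096 over all genes; 35.3% of genes called). Some neighbours differed by more than any Rca1 homoeolog in 2 comparisons without heat: for CO2+drought against drought they ran from -2.03 to 0.81, and for drought against control from -0.21 to 0.69.

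The genes whose pattern was most like that of the Rca1 sum, by Pearson correlation of rescaled log2(FPKM + 1) over the 24 libraries among 25883 genes, were TraesCS3B02G275100 (r = 0.95) and TraesCS5D02G177900 (r = 0.94). TraesCS3B02G275100 averaged 23.0 ± 8.71 FPKM under CO2+temperature+drought and 14.5 ± 3.03 under CO2+temperature, against 1.5 ± 0.239 FPKM in control (SD, n = 3 each). The genes most like the Rca2 sum were TraesCS2A02G151300 and TraesCS4B02G285000 (r = 0.95 each). TraesCS4B02G285000 averaged 131 ± 9.38 FPKM under CO2+temperature+drought and 259 ± 6.16 under CO2, against 172 ± 3.06 FPKM in control (SD, n = 3 each). The points share libraries and groups, so these correlations are descriptions.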

How the data were processed

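The authors deposited FPKM for 105200 genes in 24 libraries. The tools, per the submitters' processing notes, include Trim Galore 0.4.1, HISAT2, DESeq2 and Cuffdiff, and their roles, the genome build, annotation, strand setting and scaling are not stated. The relative worth of 1 fragment was estimated from genes above 0 and under 0.3 FPKM both in a library and in control replicate 1. The most common ratio of their values was 0.884 to 1.15. Between 32.7% and 40.8% of the ratios near 1 lay at it. Absolute depth is unknown, so no counting interval is given.

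Values were tested as log2(FPKM + 1) with limma 3.58.1 in R 4.3.3 (mean-variance trend, 1 coefficient per group, two-sided), a scale that shrinks differences of low genes. The procedure was tested on simulated data in which a gene had the same SD in every group. That setting does not cover Rca1, whose spread was wider in most heated groups than in unheated ones. Members and lists were chosen with earlier results of these data known. Named genes were the 6 members, their neighbours as a list, and the genes most like each family sum (5 each, of which 2 are printed). The identifiers matched 0 entries of the reference table of IWGSC CS RefSeq v2.1. The Calvin-Benson cycle list and the leaf markers therefore held no gene, and the tissue check, sequences and coordinates are not analysed here. Same-numbered libraries were checked for pairing: 12 of 84 pairs between groups deviated together with r over 0.1 (median 0.012, range -0.29 to 0.44), so the numbers were not taken to pair libraries. The highest values were between replicates 1 of CO2+drought and CO2+temperature+drought (0.44) and between replicates 1 of drought and temperature+drought (0.39). Alternatives were another pseudocount (0.1), no filter, rescaling, a replicate block, a fit to only the groups compared, and leaving out each library. P-values measure the spread within groups, pooled over all groups of a fit, between libraries that the labels call biological replicates. The share of all genes whose libraries did not overlap was not counted, so statements of overlap are descriptions.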

Additional observations from a re-analysis of the deposited data

Results flagged for a closer look

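The effect of CO2 on Rca2 differed with temperature and with drought. The part of the division of fragments between Rca1 and Rca2 in this was not tested. The temperature by CO2 interaction was -0.60 for Rca2-A, -0.67 for Rca2-B and -0.91 for Rca2-D on the log2 scale, and it was called for each with limma as deposited and rescaled. The drought by CO2 interaction was -0.45 for Rca2-A, -0.48 for Rca2-B and -0.53 for Rca2-D, also called for each on both scales. The Rca2-D value lost its call in 4 of the 24 fits that left out 1 library (control replicate 3, CO2 replicate 2, CO2+temperature replicate 1 or CO2+temperature+drought replicate 2).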

How the results depend on the processing

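With no filter on low genes, the number of Rca2 homoeologs called was 0 for temperature against control, temperature+drought against temperature, CO2+drought against CO2, CO2+drought against drought, CO2+temperature+drought against temperature+drought and the drought by CO2 interaction, and 1 for CO2+temperature against CO2, CO2+temperature+drought against CO2+drought and CO2+temperature+drought against CO2+temperature. In fits to only the 6 libraries compared it was 0 for temperature against control, temperature+drought against temperature and CO2+temperature+drought against temperature+drought, and 1 for CO2+temperature+drought against CO2+temperature, while 3 Rca2 and 2 Rca1 homoeologs were called for CO2+drought against drought. Rescaled, it was 1 for temperature+drought against drought, 0 for temperature+drought against temperature, 1 for CO2+drought against CO2 and 3 for CO2+temperature+drought against temperature+drought, and the Rca1 sum was 5.53 FPKM under CO2+drought and 35.8 FPKM under CO2. With a pseudocount of 0.1, 1 Rca1 homoeolog was called for CO2+drought against drought. Leaving out 1 library gave 1 to 2 Rca1 homoeologs for CO2+drought against CO2, and 1 to 2 Rca2 homoeologs for CO2+drought against drought, 0 to 3 for CO2+temperature+drought against temperature+drought and 0 to 2 for the temperature by drought interaction. Of the 45359 genes tested, those fits called 13400 to 14963, 18917 to 20200, 17493 to 21294 and 7833 to 10886, in that order. The share of all genes called is not given for every alternative fit. The member counts therefore show only how calls depend on the setting. Beyond the SE given for the fit with no filter and the column scale that rescaling changes, the cause of these changes was not tested. No called result changed sign. Among differences that were not called or not tested, signs turned for temperature+drought against temperature (Rca2-B 0.04 rescaled; without temperature+drought replicate 1, Rca1-B 0.29; without temperature replicate 3, Rca1-D -0.55) and for temperature+drought against drought (Rca2-D 0.06 rescaled), among others.

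Over all genes tested, fits to only the 6 libraries compared called 16384 genes, in place of 10601, for CO2+temperature against CO2, 1652 in place of 866 for drought against control, 13453 in place of 21890 for temperature+drought against temperature, 6872 in place of 10439 for CO2+temperature+drought against CO2+temperature and 8291 in place of 20950 for CO2+temperature+drought against temperature+drought. Rescaling gave 9561 in place of 17279 for CO2+drought against CO2, and leaving out 1 library gave 392 to 1008 for drought against control. A replicate block, in which the shared number is a term of the fit, changed no call of an activase gene: the Rca2-A difference between CO2 and control stayed at 0.93. With FPKM alone, the precision that depth gives to low levels such as Rca1-A in control is unknown.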
